A study of Mus musculus with 8 samples.

Results

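The genes described here encode the nuclear part of the oxidative phosphorylation machinery of the mouse. They were taken by their symbols in the array's probe-to-gene annotation, where a probe-set carried a single symbol: names starting with Ndufa, Ndufb, Ndufc, Ndufs or Ndufv for complex I, Sdha to Sdhd for complex II, Uqcr for complex III, Cox4 to Cox8 for complex IV and Atp5 for complex V. The rule found 90 genes of the 18193 with a single-symbol probe-set, namely 42 for complex I, 4 for complex II, 8 for complex III, 19 for complex IV and 17 for complex V. Ndufa4 and Ndufa4l2 carry a complex I name and were placed with complex IV, where the Ndufa4 protein is found. For each gene the brightest of its probe-sets, by mean log2 signal over the 8 arrays, was used, and 84 of the 90 passed a filter on low signals that 10194 genes passed in all.

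The RNA came from primary cultures of cerebellar neurons of wild-type mouse pups (P4 to P7 in the sample labels, P1 to P4 in the study's text). Cells from pooled cerebella were kept for 48 h in serum-free medium and then exposed to 0.1 µM triiodothyronine (T3, the active thyroid hormone) for 6, 16, 24 or 48 h or left untreated for the same time. Each of these 8 conditions was measured on 1 Affymetrix Mouse Genome 430 2.0 array. The treated and the untreated culture of a time point were prepared together from the same cells, so the 4 time points give 4 pairs, while nothing in the sources tells a difference between time points from a difference between preparations.

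Oxidative phosphorylation passes electrons from NADH (complex I) and succinate (complex II) through ubiquinone, complex III and cytochrome c to oxygen at complex IV, and the proton gradient so built drives ATP synthesis by complex V. Most subunits are encoded in the nucleus, made in the cytosol and imported, and must be matched to the few that mitochondrial DNA encodes. Transcription factors of the NRF1, ETS (GABPA), YY1 and ERR families, with the coactivator PGC-1alpha (Ppargc1a), are known regulators of many of these genes. Thyroid hormone is a classical regulator of mitochondrial respiration in liver, heart and muscle, and newborn neurons rely increasingly on respiration as they mature.

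The promoter sequences of 5 of these genes are shown because the results below turn on them. Complex II differed most between hours of culture (Sdha, Sdhb and Sdhd are shown). Sdhc, its gene with the steepest slope, had no window. Uqcrc1 was the complex III gene with the highest mean T3 difference, and Ndufs4 and Sdhd had the lowest unadjusted p-values for T3 with limma. Each sequence is a RefSeq window (build GRCm38.p6) from 250 bases before to 50 after an annotated start. It is given 5′ to 3′ along the gene's strand, with capitals for a match to 1 of the motifs named below. They lie at chr13:74350191-74350490 on the minus strand (Sdha), chr4:140961021-140961320 on the plus strand (Sdhb), chr9:50603800-50604099 on the minus strand (Sdhd), chr9:108936398-108936697 on the plus strand (Uqcrc1) and chr13:114388045-114388344 on the minus strand (Ndufs4).
Sdha: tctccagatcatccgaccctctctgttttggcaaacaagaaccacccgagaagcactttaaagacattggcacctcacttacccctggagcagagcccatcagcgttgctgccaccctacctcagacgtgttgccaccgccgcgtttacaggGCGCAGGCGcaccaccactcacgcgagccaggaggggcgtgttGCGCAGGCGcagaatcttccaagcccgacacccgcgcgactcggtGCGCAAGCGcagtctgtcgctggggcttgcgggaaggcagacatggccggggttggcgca
Sdhb: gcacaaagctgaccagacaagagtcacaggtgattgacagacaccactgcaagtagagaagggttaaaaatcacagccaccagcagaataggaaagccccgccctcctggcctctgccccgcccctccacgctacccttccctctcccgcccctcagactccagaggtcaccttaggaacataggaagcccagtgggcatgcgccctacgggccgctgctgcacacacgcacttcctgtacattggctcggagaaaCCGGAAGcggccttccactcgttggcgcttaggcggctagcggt
Sdhd: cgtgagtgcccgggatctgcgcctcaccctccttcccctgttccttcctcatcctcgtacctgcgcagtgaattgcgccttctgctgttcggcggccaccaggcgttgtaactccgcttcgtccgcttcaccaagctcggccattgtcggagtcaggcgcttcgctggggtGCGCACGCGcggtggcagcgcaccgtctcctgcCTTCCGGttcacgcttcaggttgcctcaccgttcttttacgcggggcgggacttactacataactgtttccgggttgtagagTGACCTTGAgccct
Uqcrc1: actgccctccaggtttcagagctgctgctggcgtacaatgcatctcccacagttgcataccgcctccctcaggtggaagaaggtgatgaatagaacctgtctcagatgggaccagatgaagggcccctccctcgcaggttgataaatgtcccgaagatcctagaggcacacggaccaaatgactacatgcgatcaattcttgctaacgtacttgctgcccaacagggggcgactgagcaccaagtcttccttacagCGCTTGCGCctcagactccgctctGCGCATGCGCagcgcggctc
Ndufs4: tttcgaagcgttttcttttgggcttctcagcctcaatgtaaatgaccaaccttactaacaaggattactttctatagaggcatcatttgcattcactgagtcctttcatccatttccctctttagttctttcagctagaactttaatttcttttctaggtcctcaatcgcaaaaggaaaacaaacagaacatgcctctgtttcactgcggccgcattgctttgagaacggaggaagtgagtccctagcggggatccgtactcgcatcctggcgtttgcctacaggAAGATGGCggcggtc

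The Sdha window held the NRF1 core GCGCANGCG at bases 153, 196 and 241, counted from 1 at its 5′ end. The Sdhb window held the ETS core CCGGAAG at base 257. The Sdhd window held an NRF1 core at base 172, an ETS core on the opposite strand at base 205 and the ERR half-site TCAAGGTCA on the opposite strand at base 287. In Uqcrc1 the NRF1 core stood at bases 257, 281 and 282, the last pair overlapping on opposite strands, and in Ndufs4 the YY1 core AAGATGGC stood at base 286.

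Windows were at hand for 74 of the 90 genes, 79 in all because some genes have several, and each motif was searched on both strands there and in all 32851 windows of the table. The NRF1 core was in 26.6% of the genes' windows (21 of 79) and in 6.25% of all windows, and the ETS core in 24.1% (19) and 8.86%. The YY1 core was in 12.7% (10) against 2.75%, and the ERR half-site in 2.53% (2, Atp5g3 and Sdhd) against 0.423%. At least 1 of the NRF1, ETS and YY1 cores was in 53.2% of the genes' windows (42 of 79) and in 16% of all. The thyroid hormone response element searched, the half-site AGGTCA repeated after 4 bases (the ERR half-site ends in the same letters), was in 0 of the 79 windows and in 0.0152% of all. With no mismatch allowed, the elements that the study found bound by the T3 receptor near Klf9, Hr and Dbp would not match either. By complex, the NRF1 core was in 9 of 40 windows of complex I, 2 of 3 of complex II, 2 of 5 of complex III, 1 of 13 of complex IV and 7 of 18 of complex V. A match is a string of letters and no measured binding, and its absence says only that these letters are not in the window.

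**Figure D1:**
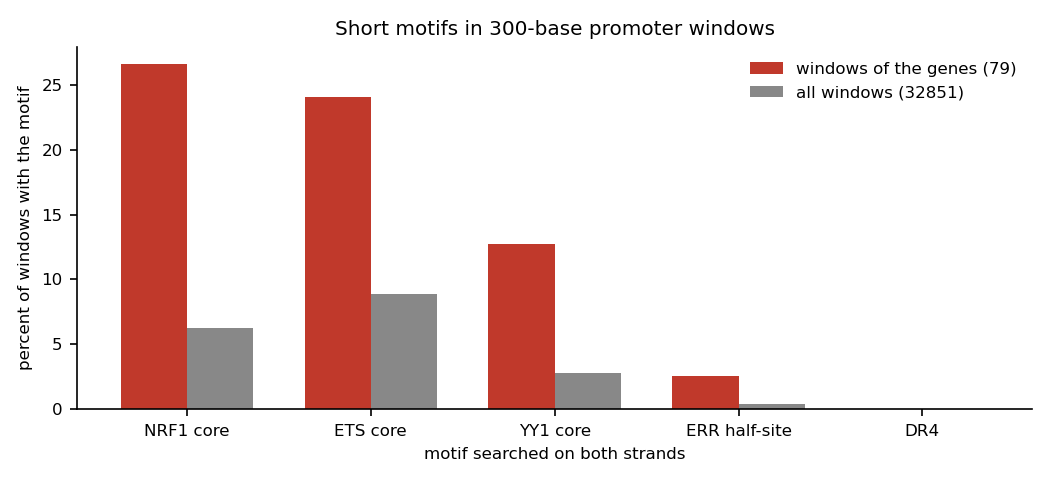
Percent of promoter windows holding each motif on either strand (y axis) for the 79 windows of oxidative phosphorylation genes (red) and all 32851 windows (grey). The NRF1, ETS and YY1 cores reached 26.6%, 24.1% and 12.7% of the genes' windows against 6.25%, 8.86% and 2.75% of all.

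The values are MAS5 signals, an intensity estimate per probe-set that the authors scaled to a common trimmed mean on every array. A signal also depends on its probes, so signals of different genes are not compared as levels of RNA. Geometric mean signals of the 84 genes ran from 35.7 (Ndufb1) to 4828 (Uqcrb), with a median of 1206 against 171.5 for all kept genes, and 47 lay at or above 1000. Over the 8 arrays the brightest gene of each complex spanned 2423.4 to 3024.1 for Ndufa1, 957.0 to 1793.8 for Sdhb, 4484.6 to 5421.0 for Uqcrb, 3269.0 to 3940.8 for Cox7a2 and 2789.6 to 3628.7 for Atp5c1. The dimmest spanned 23.3 to 41.3 for Ndufb1, 262.8 to 698.7 for Sdhc, 146.2 to 286.4 for Uqcr10, 19.9 to 57.0 for Cox6b2 and 369.3 to 481.6 for Atp5l. The 8 complex I assembly factors, which help to build the complex and do not stay in it, had a median signal of 169.2. The number of arrays limits the precision of every comparison. The standard error of a T3 difference had a median of 0.08 (log2) over the 84 genes and 0.14 over all kept genes. Standard errors and intervals in this text are limma's, which moves each gene's variance towards that of probe-sets of similar signal. They are therefore not the spread of that gene's own pairs or time points alone.

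Cytochrome c oxidase has subunits with a general and a tissue-specific form, and the array measured both for several. The general forms gave signals from 2682.8 to 3191.7 for Cox4i1, from 2456.5 to 2799.4 for Cox6a1, from 3038.4 to 3818.1 for Cox6b1 and from 3269.0 to 3940.8 for Cox7a2 over the 8 arrays. Signals of Cox8a, also a general form, ran from 315.5 to 399.2, those of Ndufa4 from 831.5 to 1219.3, and those of Cox7a2l, a factor that joins complexes III and IV, from 2139.5 to 2737.6. Of 8 other forms, 5 did not pass the filter: Cox4i2 (2.1 to 12.1), Cox7a1 (12.0 to 35.2), Cox7b2 (0.5 to 7.4), Cox8b (3.1 to 35.8) and Ndufa4l2 (2.6 to 24.6). The 3 that passed were Cox6a2, a heart and muscle form (35.9 to 103.3), Cox6b2, a testis form (19.9 to 57.0), and Cox8c, also known from testis (38.9 to 60.5). None of the 7 striated muscle markers looked up (such as Acta1 and Ckm) passed the filter, and their summed signal stayed between 66.2 and 92.8. The sixth gene below the filter was Ndufb4 (6.1 to 13.4), whose brighter probe-sets carry several symbols and were not used.

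No oxidative phosphorylation gene was called changed by T3. With limma, pairing the arrays by time point, 0 of the 84 genes were called higher or lower with T3 after Benjamini-Hochberg adjustment over the 18015 kept probe-sets, and the smallest adjusted p among them was 0.815. The same fit called 0% of all kept genes higher and 0% lower. At an unadjusted p below 0.05 stood 2 of the 84 genes, Ndufs4 and Sdhd (2.38%), against 4.85% of all kept genes. The known T3 targets Klf9 and Dbp had mean log2 differences of 1.04 ± 0.13 and 1.33 ± 0.12 (SE, 4 pairs), higher in 4 of 4 pairs. With limma's adjusted p of 0.306 and 0.154 neither passed. The study reports both as higher with T3 on these same arrays. Another known target, Hr, did not pass the filter and was higher with T3 in 3 of 4 pairs. Without the 24 h pair 0 of the 84 genes were called, against 0.0196% of all kept genes, and 4 had an unadjusted p below 0.05 (4.76%, against 6.66%).

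Most intervals were narrow. The 95% interval of the T3 fold change lay within 1.5-fold in either direction for 82 of the 84 genes (97.6%), against 73.1% of all kept genes and 97.1% of the 822 kept genes with a mean signal of 1000 or more. It held all 41 genes of complex I, 4 of complex II, 8 of complex III and 17 of complex V, and 12 of 14 of complex IV. The exceptions were Cox7c, with an interval from 0.976-fold to 1.84-fold, and Cox6a2, from 0.675-fold to 1.78-fold. Over the other 82 genes the ends of the intervals ran from 0.691-fold to 1.49-fold. Mean T3 differences ranged from -0.15 (Cox6b2) to 0.42 (Cox7c) on the log2 scale.

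**Figure D2:**
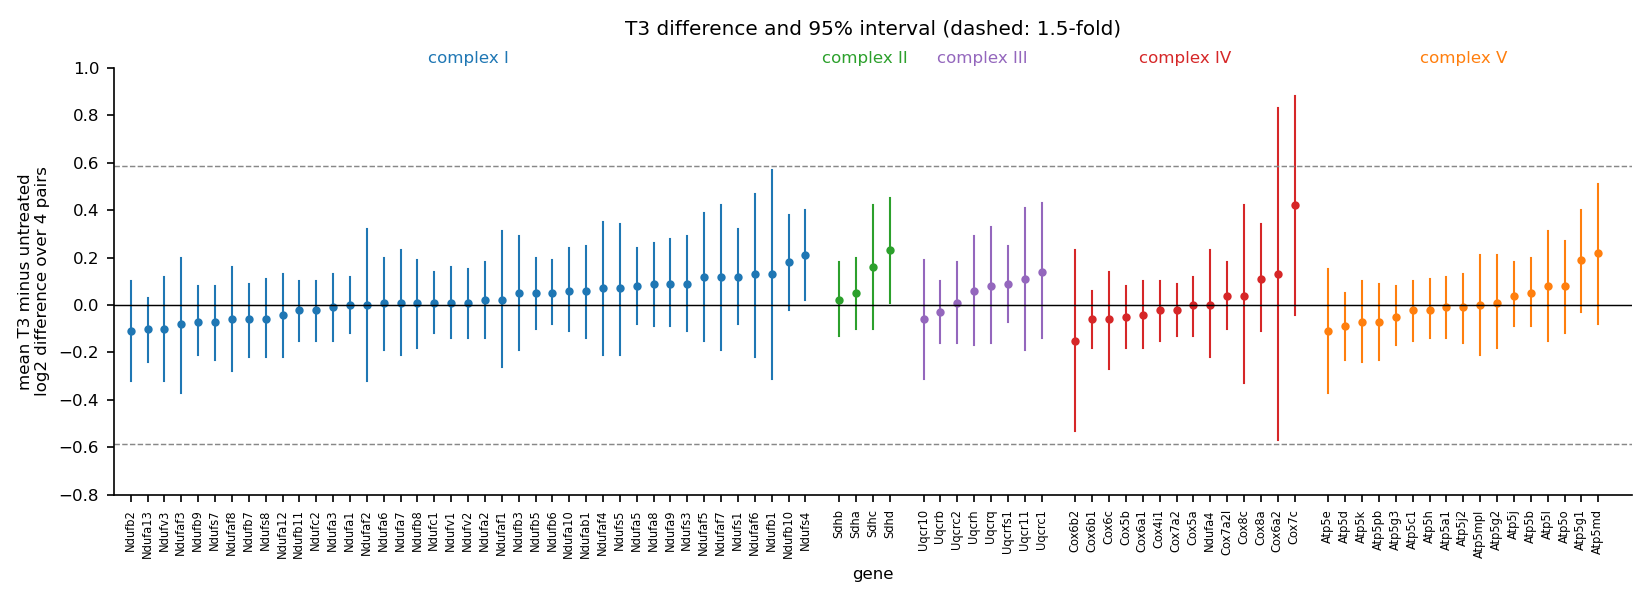
Mean T3 minus untreated log2 difference over 4 pairs (points) with limma's 95% interval (lines) for each of the 84 genes, by complex; dashed lines mark 1.5-fold. The lines of 82 genes stay between the dashed lines, and those of Cox6a2 and Cox7c cross.

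As a group the genes had a median difference near 0 at every time point. The median T3 minus untreated log2 difference was 0.02 at 6 h, 0.02 at 16 h, 0.01 at 24 h and 0.00 at 48 h, beside 0.00, -0.01, 0.03 and -0.02 over all kept genes. The mean of the 4 medians was 0.011 ± 0.010 (SD, 4 pairs). Of the 84 genes, 53, 43, 44 and 42 were higher with T3 at the 4 time points in turn. In all 4 pairs T3 was higher for 7 genes (8.33%, against 6.91% of all kept genes) and lower for 4 (4.76%, against 7.92%). Centring each array on its median changed these counts to 2 and 12, with 2.87% and 14.9% of all kept genes, so the balance of the directions turned with that scaling, which moved the median of all kept genes by -0.06. The 7 were Ndufs4, Ndufa8, Ndufb6, Ndufb10, Sdhd, Uqcrfs1 and Cox8a, and the 4 were Ndufa13, Ndufb11, Ndufs7 and Atp5d.

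Ndufs4, an accessory subunit that stabilises the NADH-oxidising arm of complex I, had the highest mean T3 difference of its complex. Its signals were 670.7, 752.1, 678.6 and 718.7 with T3 and 606.9, 623.8, 592.6 and 614.3 without (at 6, 16, 24 and 48 h, in this order for every gene below). The 4 treated arrays (670.7 to 752.1) all lay above the 4 untreated ones (592.6 to 623.8). How many of all kept genes separate in this way was not counted. The mean difference of Ndufs4 was 0.21 ± 0.08 (limma's SE, 4 pairs), or 1.16-fold (95% interval 1.01 to 1.32, adjusted p 0.815 with limma). Its second probe-set had a mean difference of 0.36 and 1 dimmer kept probe-set -0.15. Sdhd, a membrane anchor of complex II, was the other gene of lowest p. Its signals were 421.1, 664.1, 512.6 and 765.2 with T3 and 388.4, 521.5, 467.9 and 608.7 without. T3 was higher in 4 of 4 pairs, by a mean of 0.23 ± 0.09 (SE), or 1.17-fold (1.01 to 1.37, adjusted p 0.815), although treated and untreated arrays overlapped because both were higher at 16 and 48 h. At the low end of complex I, Ndufb2, an accessory subunit of the membrane arm, had a mean difference of -0.11 ± 0.09 (SE) and was lower in 3 of 4 pairs.

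For the catalytic subunits and the other core or general subunits named here the differences were no more than 1.5 times their standard errors. Mean T3 differences (log2, SE, 4 pairs) were 0.01 ± 0.06 for Ndufv1, the flavoprotein that accepts electrons from NADH, and 0.01 ± 0.06 for its iron-sulfur partner Ndufv2. Among the other iron-sulfur and core subunits of complex I they were 0.12 ± 0.09 for Ndufs1, 0.09 ± 0.08 for Ndufs3, -0.07 ± 0.07 for Ndufs7 and -0.06 ± 0.07 for Ndufs8. In complex II they were 0.05 ± 0.07 for the flavoprotein Sdha, 0.02 ± 0.07 for the iron-sulfur subunit Sdhb and 0.16 ± 0.11 for the anchor Sdhc. In complex III, Uqcrc1 had 0.14 ± 0.12, Uqcrc2 0.01 ± 0.07 and the Rieske protein Uqcrfs1 0.09 ± 0.07, and the small subunit Uqcr10 had the lowest value, -0.06 ± 0.11. In complex IV, Cox4i1 had -0.02 ± 0.05 and Cox5a -0.00 ± 0.05. In complex V the catalytic beta subunit Atp5b had 0.05 ± 0.06 and the alpha subunit Atp5a1 -0.01 ± 0.05, while Atp5md (0.22 ± 0.13) and Atp5e (-0.11 ± 0.11) stood at the ends.

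By the brightest probe-set of each gene, single time points gave no 2-fold difference outside 24 h. The second probe-set of Sdhc had a log2 difference of 1.44 at 16 h, against 0.17 by the brightest. At 6, 16 and 48 h no gene of the 84 was 2-fold higher or lower with T3, against 0.746%, 0.667% and 1.13% of all kept genes. At 24 h there were 2 (2.38%), Cox6a2 and Cox7c, against 8.67% of all kept genes. Dimmer kept probe-sets also passed 2-fold at 24 h for Cox7c (log2 difference 1.42), Ndufa3 (1.39), Atp5c1 (1.08) and Ndufs4 (-1.01). The brightest probe-sets of Ndufa3, Atp5c1 and Ndufs4 had -0.10, -0.12 and 0.20. Signals of Cox7c, a general subunit of complex IV, were 77.2, 303.0, 87.0 and 150.5 with T3 and 87.6, 244.0, 42.8 and 103.4 without. Those of Cox6a2 were 71.1, 78.0, 95.7 and 68.7 with T3 and 85.3, 103.3, 35.9 and 79.6 without. Both differences rested on the lowest of the 8 values, that of the untreated 24 h array (42.8 and 35.9), and neither reached 2-fold with 32 added to every signal. In the other pairs Cox6a2 was lower with T3, and Cox7c was lower at 6 h and higher at 16 and 48 h. The untreated 24 h array stands apart in markers of other cells: the 6 astrocyte and Bergmann glia markers summed to 6027 there and to between 1361 and 1733 elsewhere, with 5 of the 6 kept. Of the 4 oligodendrocyte lineage genes measured, Olig1 (681.5) and Mbp (826.1) were at their highest there, while Pdgfra (242.4) was at its lowest and Olig2 (23.5, not kept) was below its 6 h values (25.7 and 31.0). Their part in the 24 h values was not tested.

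The 84 genes tended to be higher at 16 h than at 6 h, lower at 24 h and higher at 48 h. Both 16 h arrays were above both 6 h arrays for 74 of the 84 genes (88.1%), against 37.1% of all kept genes, and both were below for 3 (3.57%, against 41.3%). Both 24 h arrays were then below both 16 h arrays for 61 genes (72.6%, against 31.9%) and above for 1, Ndufaf3 (1.19%, against 25.4%). Both 48 h arrays were above both 24 h arrays for 49 genes (58.3%, against 34.6%) and below for 5 (5.95%, against 30.4%). Among the 822 kept genes with a mean signal of 1000 or more the shares of these 3 steps were 47.1%, 50.2% and 37.5%. With quantile normalization the first 2 counts were 73 and 43, with 36.3% and 32.3% of all kept genes, and the one for 48 h above 24 h was 30 (35.7%, with 36% of all kept genes), no more than the share of all genes. With median centring the 3 counts were 64, 61 and 72, with 31.7%, 32.7% and 45.2% of all kept genes. Without the untreated 24 h array the counts of the steps to and from 24 h were 68 (44.4% of all kept genes) and 60 (45.1%). No test was made of these counts, since the 2 arrays of a time point come from the same cells.

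**Figure D3:**
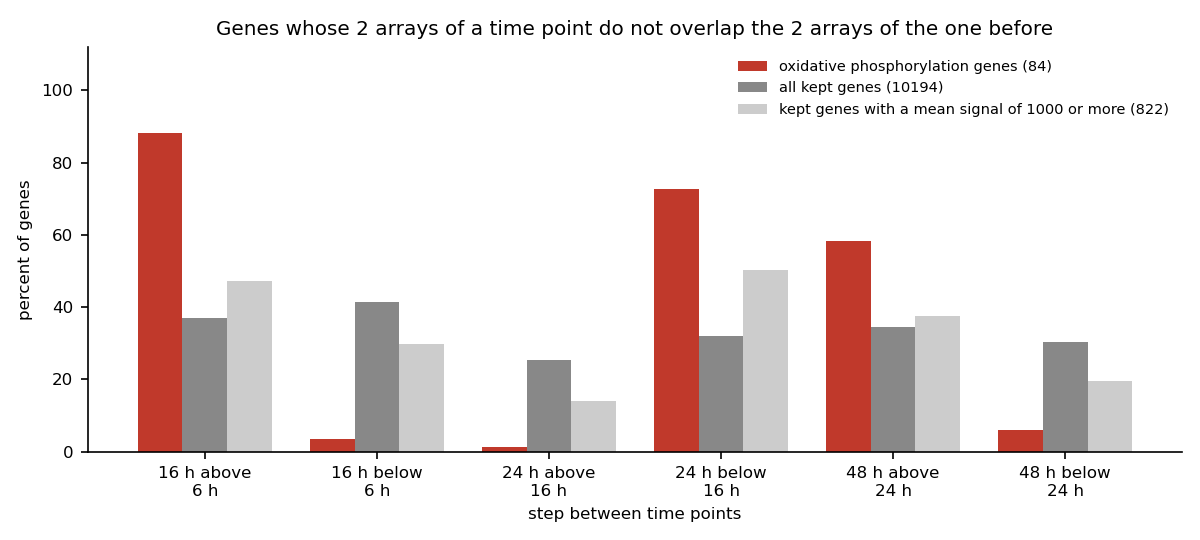
Percent of genes (y axis) whose 2 arrays of a time point both lie above or both lie below the 2 arrays of the time point before, for the 84 oxidative phosphorylation genes (red), all 10194 kept genes (dark grey) and the 822 with a mean signal of 1000 or more (light grey). The genes stand at 88.1%, 72.6% and 58.3% for 16 h above 6 h, 24 h below 16 h and 48 h above 24 h.

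In size these steps were small. The median change from 6 to 16 h was 1.21-fold with T3 and 1.29-fold without, beside 0.971-fold and 0.986-fold over all kept genes. From 16 to 24 h the medians were 0.872-fold and 0.884-fold, and from 24 to 48 h they were 1.11-fold and 1.09-fold. Every complex had a higher median at 16 h than at 6 h, by 1.20-fold with T3 and 1.30-fold without in complex I, 1.57-fold and 1.46-fold in complex II, 1.46-fold and 1.25-fold in complex III, 1.16-fold and 1.22-fold in complex IV, and 1.22-fold and 1.28-fold in complex V. The 3 genes lower at 16 h were Atp5g2, 1 of 3 genes for the same c subunit of the ATP synthase rotor, Ndufb11, and the assembly factor Ndufaf3. The other c subunit genes went the other way at 16 h: Atp5g1 went from 6 h by a factor of 2 with T3 and 1.96 without, and Atp5g3 by 1.17 and 1.21.

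**Figure D4:**
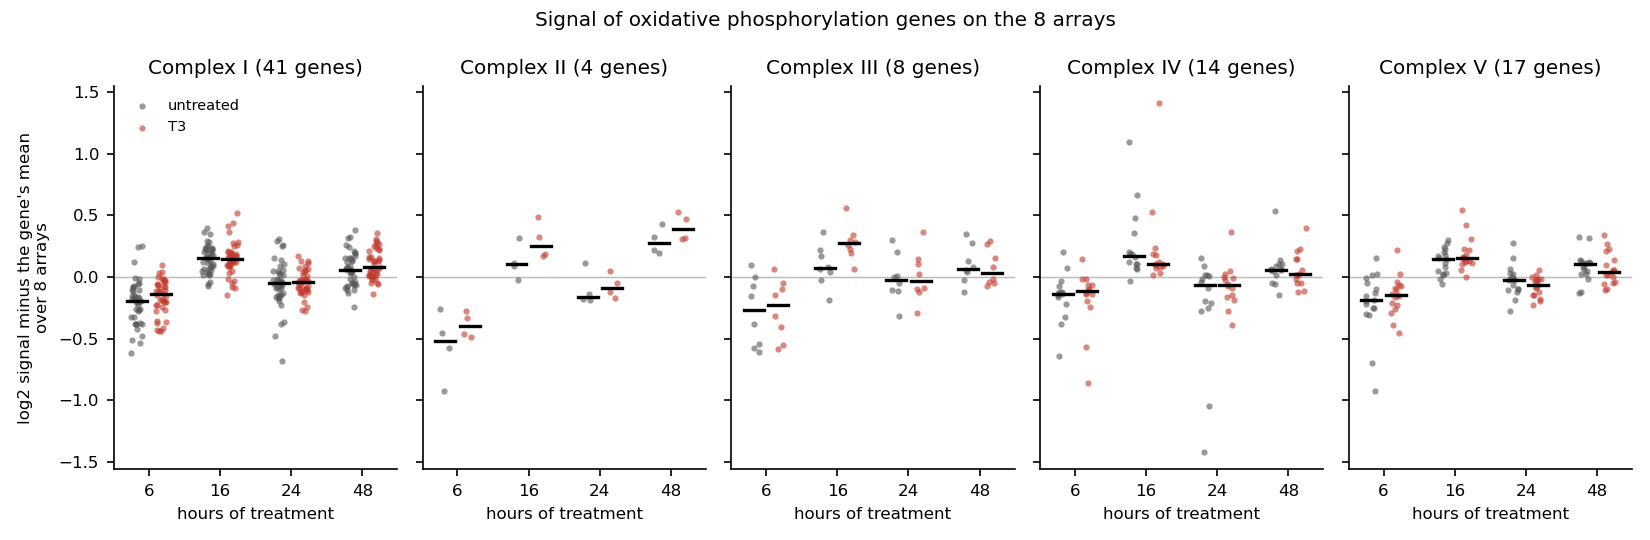
Log2 signal of each gene minus its mean over the 8 arrays (y axis) by hours of treatment (x axis), for untreated (grey) and T3 (red) arrays; each point is 1 gene, black bars are medians. In every complex the medians at 6 h are below those at 16 h, and complex II spans most, from -0.52 (untreated 6 h) to 0.39 (T3 48 h).

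A second probe-set of the same gene is a reading that the rule did not use. It shares the arrays and the RNA of the brightest, so it cannot speak to an effect of array, scaling or preparation. Of the 43 genes with 2 or more kept probe-sets, 39 had both 16 h arrays above both 6 h arrays by the brightest. By the second brightest there were 36, and the median differences were 0.32 (brightest) and 0.36 (second) on the log2 scale. By the brightest probe-set the share of all kept genes was 37.1%. For the T3 difference the 2 probe-sets had the same sign in 24 of the 43. Second probe-sets of other genes were not counted, for the hours or for T3.

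Over all 4 time points, 73 of the 84 genes had a positive slope on the log2 of the hours (86.9%), against 47.2% of all kept genes, with a median slope of 0.06 per doubling of the hours against -0.01. With limma, with a random block for the time point and adjustment over all kept probe-sets, 0 of the 84 were called rising and 0 falling, against 2.09% and 0.5% of all kept genes, and 12 had an unadjusted p below 0.05, all with positive slopes, against 26.9% of all kept genes. The nearest was Sdhb (adjusted p 0.0526). Without the 24 h arrays 7 were called rising (8.33%, against 15.6% of all kept genes). Taking the 8 arrays as independent, which counts cultures of the same cells as separate, called 6 rising (7.14%) and 0 falling, against 12.4% and 8.96% of all kept genes. The slope rests on the 6 h arrays: without them its median was -0.04 and 29 of 84 were positive. Both 6 h arrays were below all later arrays for 44 genes (52.4%, against 21.8%) and above for Atp5g2 and Ndufb11 (2.38%, against 18.5%). Without the untreated 24 h array the first count was 48 (57.1%, against 26.9%).

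Complex II, succinate dehydrogenase, also an enzyme of the citric acid cycle, had the highest median slope (0.25, against 0.07, 0.11, 0.04 and 0.06 in complexes I, III, IV and V), and all 4 of its genes had their lowest signals on the 6 h arrays. Signals of Sdha, the flavoprotein that oxidises succinate, were 1097.7, 1509.3, 1218.4 and 1644.0 with T3 and 1110.5, 1437.9, 1173.2 and 1546.6 without. Those of Sdhb, which carries the iron-sulfur clusters, were 1022.8, 1607.0, 1477.9 and 1776.9 with T3 and 957.0, 1522.5, 1547.0 and 1793.8 without. Those of Sdhc, a membrane anchor with Sdhd, were 360.8, 698.7, 441.2 and 689.4 with T3 and 262.8, 619.7, 451.2 and 669.0 without. Sdha, Sdhc and Sdhd were lower at 24 h than at 16 or 48 h, while Sdhb stayed close to its 16 h values at 24 h. From 6 to 48 h the ratio of signals was 1.5 with T3 and 1.39 without for Sdha, 1.74 and 1.87 for Sdhb, 1.91 and 2.55 for Sdhc, and 1.82 and 1.57 for Sdhd. Slopes were 0.15 ± 0.07, 0.28 ± 0.06, 0.34 ± 0.12 and 0.23 ± 0.09 (log2 per doubling, SE, 8 arrays), with limma's adjusted p of 0.206, 0.0526, 0.144 and 0.156. That ratio had a median of 1.78-fold with T3 and 1.71-fold without over the 4 genes, beside 1.14-fold and 1.18-fold over all 84. A second probe-set of Sdhd had a slope of 0.06, and that of Sdha 0.41. For Sdhc the second probe-set was not higher at 16 h than at 6 h on both arrays (187.9 and 139.9 with T3, 69.3 and 86.3 without). Without the 24 h arrays all 4 complex II genes were called rising, in a fit that called 15.6% of all kept genes rising and 15.2% falling.

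In complexes I, III and V the steepest slopes belonged to accessory or small subunits. Signals of Ndufv3, an accessory subunit of the NADH-oxidising module, were 493.9, 626.7, 674.6 and 828.0 with T3 and 461.4, 711.7, 801.6 and 871.0 without. Each later time point was higher than the one before in both series, with a slope of 0.28 ± 0.07 (SE) and an adjusted p of 0.0756 with limma. Signals of Atp5md, a small subunit that links ATP synthase dimers, were 379.7, 668.0, 519.9 and 631.7 with T3 and 263.1, 505.2, 553.6 and 621.6 without. The lowest was the untreated 6 h array, and the slope was 0.32 ± 0.11 (adjusted p 0.135). Signals of Uqcr10, a small subunit of complex III, were 152.2, 266.9, 204.3 and 273.1 with T3 and 146.2, 286.4, 223.6 and 283.5 without. The 16 h arrays lay above those of 6 and 24 h and the 48 h arrays above those of 24 h, and the slope was 0.27 ± 0.11 (adjusted p 0.163). Signals of Uqcrc1, a core protein of complex III, were 850.6, 1343.1, 1140.1 and 1177.5 with T3 and 709.1, 930.3, 1218.1 and 1278.8 without. At 6 and 16 h the treated arrays were higher and at 24 and 48 h the untreated ones.

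In complex IV the steepest slope was that of the dim Cox6b2 (0.32 ± 0.17, adjusted p 0.286), with signals of 19.9 and 23.1 at 6 h and 41.8 and 52.2 at 48 h (T3, then untreated). Slopes of general subunits were 0.04 ± 0.04 for Cox4i1, 0.04 ± 0.05 for Cox5a and 0.02 ± 0.04 for Cox7a2, but 0.08 ± 0.05 for Cox5b and 0.14 ± 0.08 for Ndufa4. Negative slopes were few and shallow. Ndufaf4, an assembly factor of complex I, had the lowest slope of that complex, -0.12 ± 0.13. Its signals were 483.4, 624.6, 388.6 and 454.5 with T3 and 559.6, 605.3, 293.5 and 445.4 without. It was highest at 16 h and lowest at 24 h. Lowest in their complexes were also Uqcrfs1 (-0.05 ± 0.06), Cox6a2 (-0.06 ± 0.25) and Atp5g2 (-0.08 ± 0.07).

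**Figure D5:**
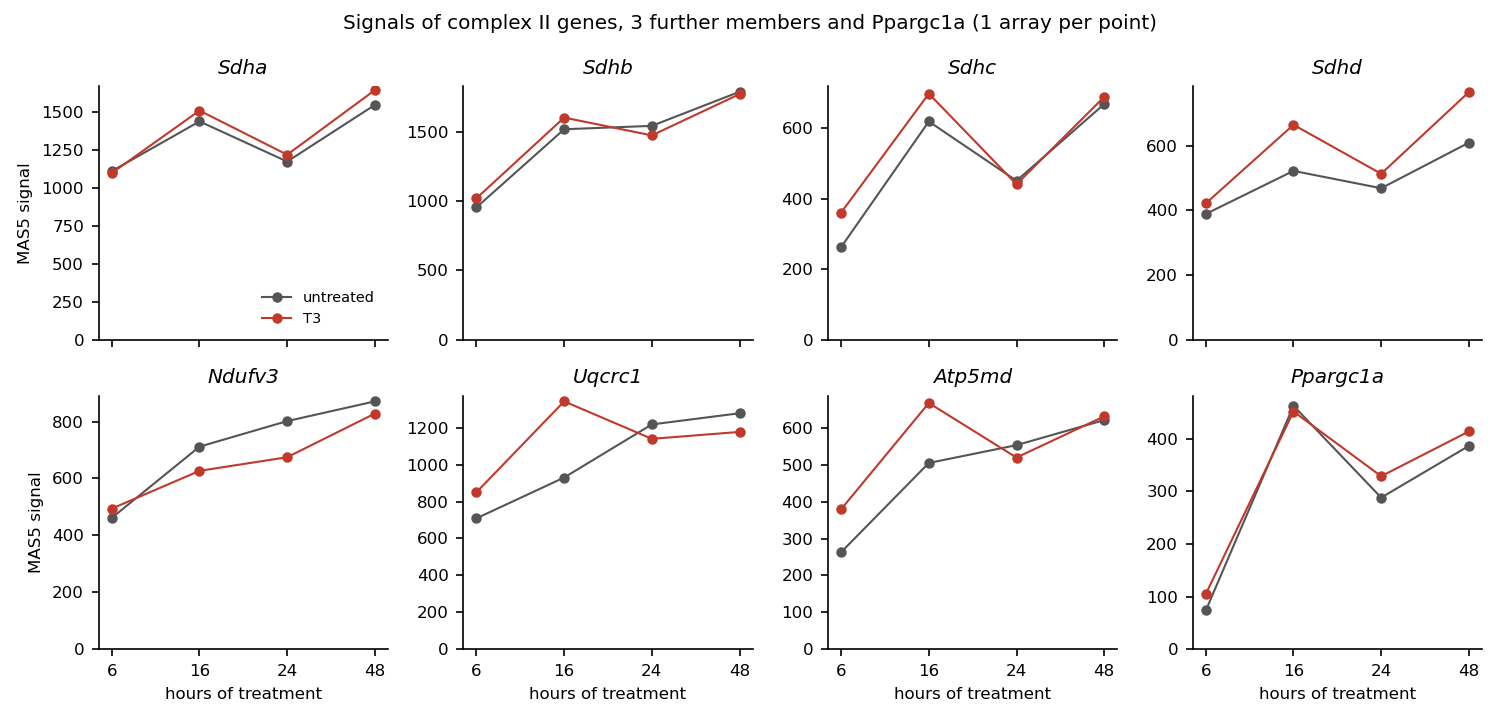
MAS5 signal (y axis, from 0) by hours of treatment (x axis) for the 4 complex II genes, Ndufv3, Uqcrc1, Atp5md and the coactivator gene Ppargc1a, on T3 (red) and untreated (grey) arrays, 1 array per point. All 8 genes are lowest at 6 h, and Ppargc1a goes from 104.8 and 73.4 at 6 h to 451.9 and 462.8 at 16 h.

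Related genes outside the rule were read from lists of the pathway. No gene of these lists was called for T3 or for the hours. Of the 28 kept electron carrier and assembly genes both 6 h arrays were lowest for 5, of 12 citric acid cycle genes for 4, of 6 carrier genes for 2 and of 12 mitochondrial biogenesis genes for 3, beside 21.8% of all kept genes. Signals of Ppargc1a, whose product PGC-1alpha coactivates NRF1 and ERR, were 104.8, 451.9, 328.8 and 414.0 with T3 and 73.4, 462.8, 288.1 and 386.5 without. Its 6 later arrays lay well above both 6 h arrays, by 4.31-fold with T3 and 6.31-fold without at 16 h, and its slope was 0.71 ± 0.20 (SE, adjusted p 0.0841 with limma). The T3 difference of Ppargc1a was 0.19 ± 0.12 (SE, adjusted p 0.818). The factors Nrf1 (slope -0.13 ± 0.13), Gabpa (-0.08 ± 0.11), Yy1 (-0.08 ± 0.06) and Tfam, the mitochondrial transcription factor (-0.09 ± 0.09), had negative slopes that did not pass the test (adjusted p 0.537, 0.684, 0.403 and 0.579). Esrra, which encodes an ERR factor, had a positive slope that did not pass either (0.29 ± 0.16, adjusted p 0.29), with 16 h signals 2.58 times those at 6 h with T3 and 1.64 times without. Suclg2, a succinyl-CoA ligase subunit of the citric acid cycle, went from 325.8 and 321.2 at 6 h to 922.0 and 920.6 at 48 h (T3, then untreated; slope 0.45 ± 0.11, adjusted p 0.0681).

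Markers of cell types differed between the hours as well. In bulk RNA fewer cells of a type and less RNA per cell cannot be told apart. The 5 granule cell lineage markers (Pax6, Neurod1, Zic1, Rbfox3 and Tubb3, all kept) summed to 8622, 4514, 6550 and 2760 with T3 and 8866, 4092, 8598 and 2096 without, in order of the hours. By these sums the neuronal label is met at 6 h and less clearly at 48 h, where they were lowest. The study's text reports that most cells carried the neuronal marker Tuj1 by staining. It also reports that Pax6, given there as a precursor marker, fell over time while Gabra6, of differentiated granule cells, rose. From 6 to 48 h the ratio of signals of the 5 markers ran from 0.0977 (Tubb3) to 0.601 (Zic1) with T3. Without T3 it ran from 0.0752 (Pax6) to 0.475 (Zic1). The 6 markers of meninges and vessels, all kept, summed to 732.8, 4618, 4830 and 7763 with T3 and 1162, 5737, 3556 and 8060 without, and for 5 of the 6 both 6 h arrays were lowest. Of these 6, 3 were called rising with the hours. The microglia list, 3 of 4 kept, summed to 573.9, 195.5, 74.4 and 862.5 with T3 and 451.4, 164.6, 90.7 and 659.1 without. Of the 3 choroid plexus markers, 2 were kept. Ttr lay between 3415.2 and 4477.7 on all arrays, whereas Folr1 had 359.8, 1185.9, 371.2 and 1240.2 with T3 and 183.2, 841.0, 260.0 and 988.0 without, low at 6 and 24 h and high at 16 and 48 h. The part of these lists in the higher oxidative phosphorylation signals at 16 h was not tested.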

How the data were processed

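Total RNA of 8 cultures was put through 1 round of linear amplification and hybridised by the authors to Affymetrix 430 2.0 arrays, 1 per condition. The authors processed them with GCOS and MAS5 (submitters' processing notes, versions not given) and deposited MAS5 signal intensity per probe-set, scaled to a common trimmed mean of 100 (trim of 2% at each end, as recomputed here from the deposited values). Of 45101 probe-sets, 64 controls were left out. Of the rest, 34945 carried 1 symbol, 932 several and 9160 none in the platform annotation. Signals under 1 were set to 1, log2 was taken, and probe-sets with a mean log2 of at least 4.95 (60th percentile, 18015) were kept.

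T3 and hours were fitted with limma 3.58.1 in R 4.3.3 across all kept probe-sets, with a mean-variance trend and Benjamini-Hochberg adjustment at 0.05: time point as a fixed block for T3, and for log2 hours with treatment as a covariate and time point as a random block (consensus correlation 0.569). With 1 array per condition, p-values of the T3 fit rest on how T3 differences varied among the 4 pairs, in the gene and in probe-sets of similar signal. Those of the fit on hours rest in the same way on the scatter of the time points around the slope. Neither measures the spread between replicate cultures of a condition. The weight given to the other probe-sets was 4.44 (T3) and 3.78 (hours) prior degrees of freedom. The genes and lists were chosen with earlier results of these data known. Named genes are those called and those at the ends of each complex by T3 difference, slope or signal. Also named are catalytic, other core and some general subunits, paralogs of complex IV and genes beyond 2-fold. A few others were named after their values were seen. Alternatives were quantile normalization, median centring, 32 added before log2, no filter, a 75th percentile filter, all probe-sets of a gene averaged, each time point left out, and other treatments of the time points.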

Additional observations from a re-analysis of the deposited data

How the results depend on the processing

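The count of T3 calls among the genes was 0 under every alternative run. The share of all kept genes called was also 0%, or 0.0196% without the 24 h arrays, so this count says little about the genes. With limma an unadjusted p below 0.05 was found for 0 to 4 genes, against 0.353% to 6.66% of all kept genes. The mean of the 4 median T3 differences was 0.011, and moved to -0.048 with median centring (all kept genes: median of the mean differences -0.06) and to 0.033 with all kept probe-sets of a gene averaged. The number of genes called rising with the hours, 0, became 1 with the 75th percentile filter (3.08% of all kept genes), 1 with probe-sets averaged (3.11%), 1 without the untreated 24 h array (6.81%; chosen after seeing the data) and 6 with arrays taken as independent (7.14% of the genes, against 12.4%). With a time point left out it ran from 0 to 7 (8.33%, against 15.6%). The single gene was Sdhb each time, and the 7, without the 24 h arrays, were Sdha, Sdhb, Sdhc, Sdhd, Ndufv3, Ndufab1 and Atp5md. None was called falling under any alternative. Of all kept genes 15.2% were called falling without the 24 h arrays and 8.96% with arrays taken as independent. In some settings, such as without the 6 h arrays, the share was 0%. The 2 genes beyond 2-fold at 24 h became 0 with 32 added to every signal. The count with both 48 h arrays above both 24 h arrays, 49, fell to 30 with quantile normalization. The cause of these changes was not tested. No paired analysis by replicate number was possible because the labels give each condition a single array. Leaving out the time point block also gave 0 T3 calls, with 0% of all kept genes called.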
